A study of Mus musculus with 10 samples.

Results

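The genes described are the 8 inflammasome genes Naip1, Naip2, Naip5, Naip6, Nlrc4, Aim2, Pycard and Casp1, out of 53465 rows of a count table from mouse spleen erythroblasts, the dividing precursors of red blood cells. They were listed by name, and the set was chosen on the raw counts of Naip2 and Naip5, which are nearly absent in 1 of the 4 genotypes. The cells were isolated with Miltenyi Biotec beads 11 days after 5-FU, a drug that depletes dividing blood precursors. The genotypes were Nrf2/miR-144/451-/- (double-null, n = 3), miR-144/451-/- (cluster-null, n = 2), Nrf2-/- (Nrf2-null, n = 3) and wild type (n = 2). All 10 libraries have C57BL/6 as their strain, and all come from 5-FU-treated mice. The miR-144/451 cluster encodes erythroid microRNAs, and Nrf2 is the transcription factor made from Nfe2l2. The labels do not describe the deleted alleles, the age of the mice or which mouse gave which library. The p-values therefore measure the spread between libraries, which may be technical.

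Inflammasomes are protein platforms that switch on caspase-1 when a sensor meets a microbial product or a sign of damage. Mouse Naip proteins are sensors of bacterial proteins in the cytosol: Naip1 binds the needle and Naip2 the inner rod of type III secretion systems, while Naip5 and Naip6 bind flagellin. A Naip protein bound to its ligand recruits Nlrc4, which assembles into a wheel and passes the signal to caspase-1. Aim2 senses double-stranded DNA in the cytosol and acts through the adaptor ASC, made from Pycard. Caspase-1, made from Casp1, cuts gasdermin D and the precursors of interleukin-1 beta and interleukin-18. These genes are best known from macrophages and other myeloid cells, and caspase-1 has also been reported to cut the erythroid factor Gata1 in zebrafish and mouse blood progenitors.

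The Naip genes lie side by side on mouse chromosome 13 in the order Naip2, Naip5, Naip6 and Naip1, on the minus strand. The promoters of Naip2, Naip5 and Naip6 are shown because the first pair is the one that was nearly absent, while Naip6 beside it was not. Each is a window of 300 bases around the gene's start (RefSeq, build GRCm38.p6, 5′ to 3′ on the minus strand), at chr13:100202073-100202372 for Naip2, chr13:100247287-100247586 for Naip5 and chr13:100316567-100316866 for Naip6. Capitals mark runs of at least 12 bases that the Naip2 and Naip5 promoters share.
Naip2: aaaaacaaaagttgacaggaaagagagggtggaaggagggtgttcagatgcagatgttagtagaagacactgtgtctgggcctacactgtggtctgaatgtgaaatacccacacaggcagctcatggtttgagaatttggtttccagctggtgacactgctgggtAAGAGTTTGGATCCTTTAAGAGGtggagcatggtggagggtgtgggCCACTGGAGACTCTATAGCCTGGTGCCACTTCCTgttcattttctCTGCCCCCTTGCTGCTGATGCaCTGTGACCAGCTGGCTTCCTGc
Naip5: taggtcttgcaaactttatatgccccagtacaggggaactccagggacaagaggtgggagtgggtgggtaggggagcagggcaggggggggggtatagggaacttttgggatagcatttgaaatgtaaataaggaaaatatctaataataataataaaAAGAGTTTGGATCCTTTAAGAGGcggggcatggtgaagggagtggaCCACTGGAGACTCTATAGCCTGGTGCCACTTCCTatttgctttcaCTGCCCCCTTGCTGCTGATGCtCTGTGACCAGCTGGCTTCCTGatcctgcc
Naip6: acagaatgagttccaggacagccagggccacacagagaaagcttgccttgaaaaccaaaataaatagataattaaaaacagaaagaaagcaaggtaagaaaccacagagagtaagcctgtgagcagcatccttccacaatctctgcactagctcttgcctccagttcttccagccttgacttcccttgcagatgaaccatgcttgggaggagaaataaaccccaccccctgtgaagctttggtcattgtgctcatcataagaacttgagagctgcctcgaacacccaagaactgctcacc
The Naip2 and Naip5 promoters shared 99 of their 300 bases (33.0%) in such runs, the longest of 34 bases. Naip6 had no such run with Naip2, its longest match being 8 bases, and neither did Naip1 (11 bases). Of 32847 other RefSeq promoters, 1.12% held a 12-base run of Naip2's, and none shared more than 25 bases.

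Libraries held 13087827 to 15131036 counts. Of the 8 genes, 7 passed the filter on low counts and were tested with 14110 genes in all. Naip1 did not: it had 1 count over the double-null libraries, 2 over the cluster-null libraries, 1 over the Nrf2-null libraries and 6 over the wild type libraries. All 14 erythroblast markers were counted in every library, with a summed level of 96049.7 to 165274.3 CPM (CPM here are normalised with edgeR's TMM factors). Markers of other cell types were counted as well, and are given with the results below. Mir144, in the deleted cluster, had 0 counts in each double-null and cluster-null library, 38 over the Nrf2-null libraries and 29 over the wild type libraries. Nfe2l2 averaged 54.8 ± 6.99 CPM in double-null, 83.9 ± 3.17 CPM in cluster-null, 50.6 ± 4.78 CPM in Nrf2-null and 60.8 ± 3.8 CPM in wild type libraries (SD), and a count over the whole gene does not check a deletion of part of it. By Xist and Y-linked counts, double-null replicate 3 and both wild type libraries came from females and the other 7 from males. Sex and genotype therefore cannot be told apart where a single null is set against wild type.

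Naip2 and Naip5 were nearly absent in the cluster-null libraries and present in all others. Naip2 stood at 7.21, 8.05 and 6.12 CPM in the double-null libraries, 0.219 and 0.469 CPM in the cluster-null libraries, 8.01, 11.7 and 10.6 CPM in the Nrf2-null libraries and 8.62 and 8.23 CPM in the wild type libraries. Behind these levels lay 3 and 8 counts in the cluster-null libraries, against 142 and 101 in the wild type libraries. No other library came near the cluster-null pair. Over the summed counts, the Naip2 level in cluster-null was 23.6-fold under that of wild type (95% counting interval 13 to 48). Against Nrf2-null it was 28.0-fold lower (15.5 to 56.5), and against double-null 19.9-fold lower (10.9 to 40.3).

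Naip5, the flagellin sensor next to it, had no count at all in either cluster-null library. It stood at 2.23, 4.18 and 4.32 CPM in the double-null libraries, 0 and 0 CPM in the cluster-null libraries, 5.18, 4.59 and 9.56 CPM in the Nrf2-null libraries and 5.04 and 6.03 CPM in the wild type libraries. The wild type libraries held 83 and 74 counts. For cluster-null, Naip5 was given a floor of 3 counts per library and set against the mean of each other genotype. On that footing its level was at least 28.0-fold lower against wild type, at least 32.6-fold against Nrf2-null and at least 18.1-fold against double-null. These differences chose the genes and are given with no test. The double-null libraries also lack the cluster, and their levels of both genes stood far from those of the cluster-null libraries. The intervals and the floor cover counting error only. A count table does not tell a silent gene from reads that fail to match the sequence they were counted against, and whether the Naip locus has the same sequence in all genotypes was not tested.

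**Figure D1:**
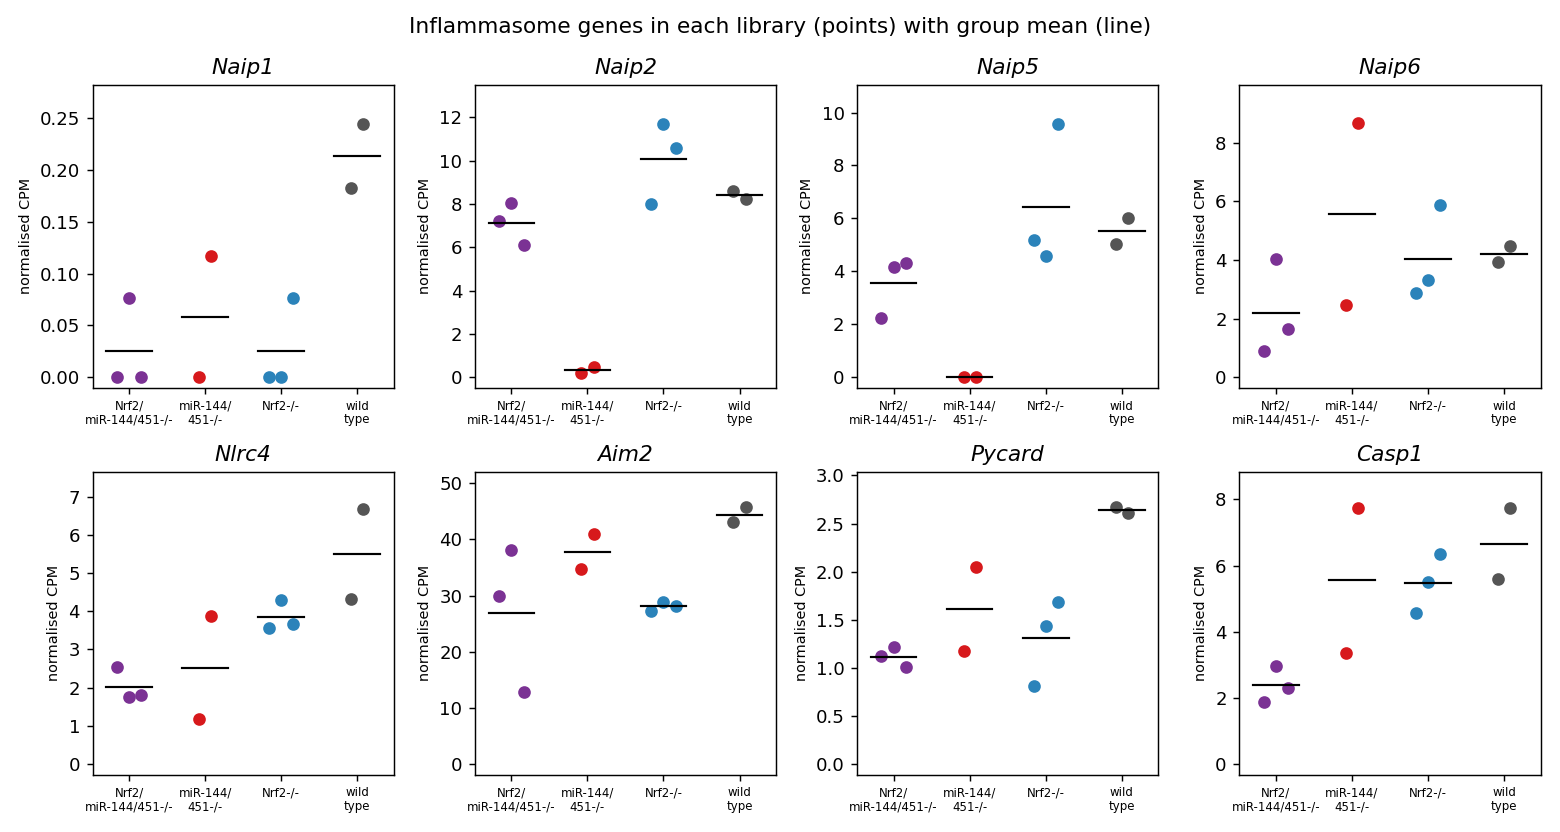
Normalised CPM of the 8 inflammasome genes (1 panel each) in each library, by genotype, with points for libraries and a line for the mean of the genotype. Naip2 and Naip5 lie at or near 0 in the 2 miR-144/451-/- libraries, while Naip6 is present there at 2.48 and 8.68 CPM.

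Naip6, the other flagellin sensor, did not share this pattern. Its level was 0.892, 4.03 and 1.66 CPM in the double-null libraries, 2.48 and 8.68 CPM in the cluster-null libraries, 2.89, 3.31 and 5.89 CPM in the Nrf2-null libraries and 3.95 and 4.48 CPM in the wild type libraries. The genotypes overlapped throughout, and the cluster-null pair held both a low and the highest value. Across the 10 libraries, Pearson's r on the log2 scale was 0.976 between Naip2 and Naip5 and -0.17 between Naip2 and Naip6, as a description of libraries that include the pair for which the genes were chosen.

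Reads can be shared between these genes, and how the authors counted such reads is not given in the sources used here. Of the 31-base words of each gene's transcripts, another gene held 32.7% for Naip2, 52.6% for Naip5, 35% for Naip6 and 44.3% for Naip1. Naip5 and Naip6 were the closest pair: 36.7% of the words of Naip5 also occur in Naip6. The level of a single Naip gene is uncertain to that extent, so the counts of all 6 annotated Naip rows, pseudogene included, were also summed. The sum was 10.3, 16.6 and 12.1 CPM in the double-null libraries, 2.7 and 9.33 CPM in the cluster-null libraries, 16.1, 19.6 and 26.4 CPM in the Nrf2-null libraries and 17.8 and 19.1 CPM in the wild type libraries. Both cluster-null libraries lay below every other library. The sum includes Naip2 and Naip5, on which the set was chosen, so this order follows from that choice and is no test. Naip6 made up 91.9% and 93.1% of the sum in the cluster-null libraries, against 8.63% to 24.3% in the other 8.

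**Figure D2:**
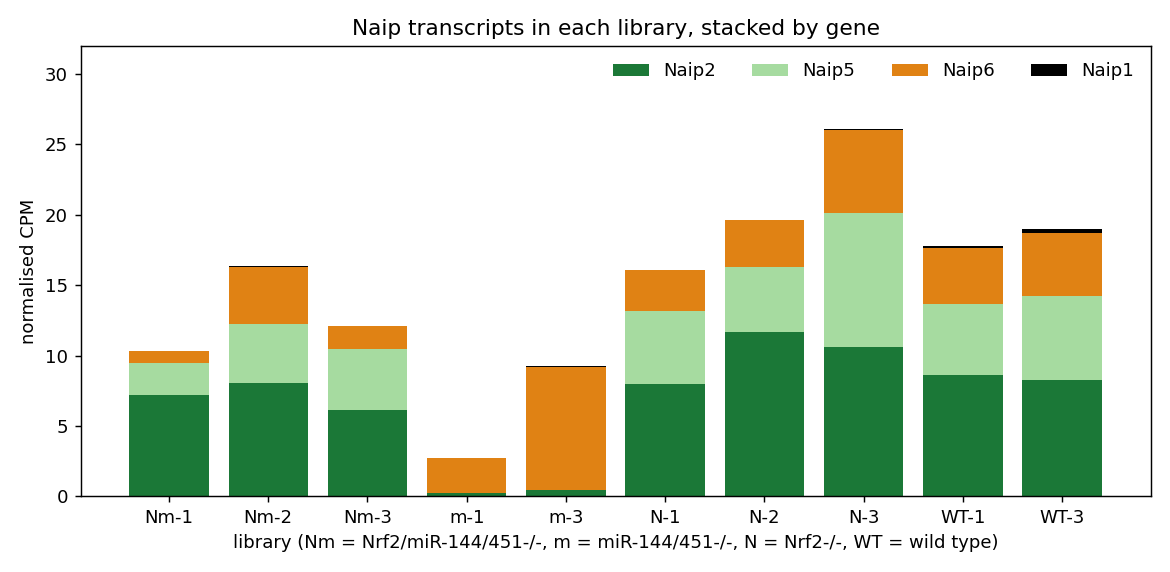
Summed normalised CPM of the Naip genes in each library, stacked by gene, with the genotypes in blocks. Naip2 and Naip5 make up most of each bar except in the miR-144/451-/- libraries, where Naip6 makes up 91.9% and 93.1%.

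The neighbours of the Naip genes on chromosome 13 were not used to choose them and were tested. Of the 6 nearest tested genes on either side, none of 12 passed the threshold in cluster-null against wild type (edgeR's quasi-likelihood test, smallest adjusted p 0.138, 2 at an unadjusted p under 0.05). Of all genes 4.63% passed, so none of 12 does not set the neighbours apart from genes at large. Smn1, next to Naip2 and the mouse counterpart of the human gene lost in spinal muscular atrophy, averaged 12.7 ± 1.13 CPM in cluster-null and 10.1 ± 0.504 CPM in wild type libraries (SD, n = 2 each; log2 fold change 0.34 ± 0.24 SE, adjusted p 0.516 by edgeR). Gtf2h2, a subunit of the general transcription factor TFIIH on the other side of Naip1, averaged 14.7 ± 0.271 CPM in cluster-null and 12 ± 2.89 CPM in wild type (0.29 ± 0.23, adjusted p 0.567 by edgeR). The 12 neighbours spanned log2 fold changes of -1.86 for Taf9, which overlaps Ak6 and had few counts (0.234 ± 0.0819 CPM against 0.852 ± 0.168 CPM), to 0.99 for Mrps27. In double-null against cluster-null none of 12 passed either, against 0.0638% of all genes (-0.83 to 1.5, smallest adjusted p 0.459 by edgeR, 1 at an unadjusted p under 0.05). The highest of these was again Taf9 (1.5 ± 0.66, p 0.0443, adjusted p 0.459 by edgeR), so its direction was that of Naip2 and Naip5 in both comparisons. In double-null against Nrf2-null 1 of 12 passed, against 27.3% of all genes. It was Mrps27, a mitochondrial ribosome gene, which averaged 5.77 ± 1.03 CPM in double-null and 2.32 ± 0.701 CPM in Nrf2-null libraries (1.31 ± 0.29, adjusted p 0.00728 by edgeR).

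**Figure D3:**
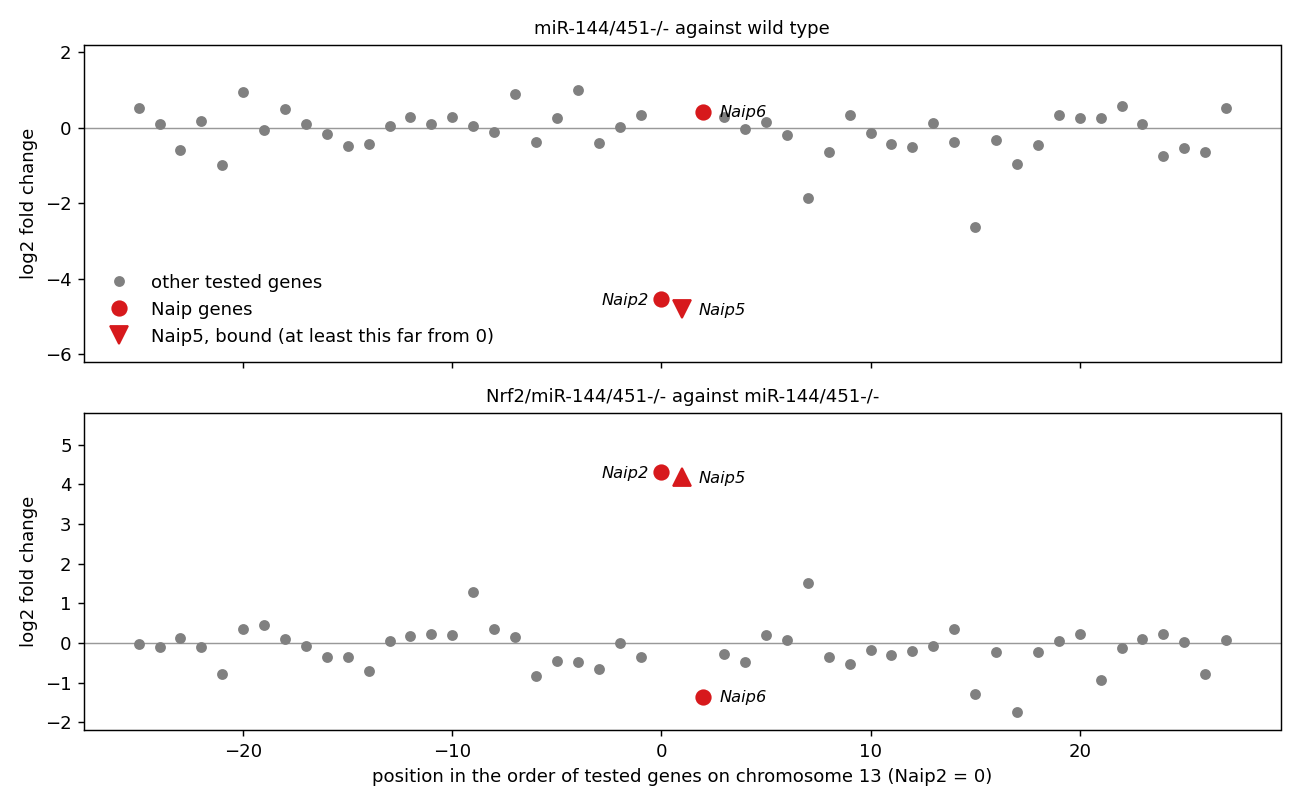
Log2 fold change of tested genes in their order along chromosome 13 around Naip2 (position 0), for miR-144/451-/- against wild type (top) and Nrf2/miR-144/451-/- against miR-144/451-/- (bottom). Naip2 lies at -4.54 and 4.30, and Naip5 is drawn at its bound, while Naip6 and the genes on either side lie between -2.63 and 1.5.

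The members were searched for target sites of the deleted microRNAs, shown with the seed (bases 2 to 8) in capitals (RefSeq, GRCm38.p6, chromosome 11).
mmu-miR-144-3p: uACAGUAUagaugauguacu
mmu-miR-451a: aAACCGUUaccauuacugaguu
The match to the seed of miR-144-3p, ATACTGT, was in none of the 8 longest annotated 3′ UTRs (GENCODE M21, 88 to 3283 bases) and in 12.3% of 21173 such UTRs. The match to the seed of miR-451a was AACGGTT, in none of the 8 and in 1.95% of the 21173. Motifs were counted in the 8 promoters on both strands. TGACNNNGC, the antioxidant response element that Nrf2 binds, occurred in that of Naip2 alone and in 12.4% of 32851 promoters. The motif AGATAA, bound by Gata1, occurred in that of Naip6 alone (11.2% of promoters). The motif of the myeloid factor PU.1, GAGGAAGT, occurred in those of Aim2 and Pycard (3.2%). TTCNNNGAA, the gamma-activated site of interferon signalling, occurred in none of the 8 (8.3%). No result is given for the interferon-stimulated response element, so motifs of interferon signalling are covered only in part. A match describes the letters of the window and does not show a site in use.

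Of all genes, those with the pattern most like that of Naip2 over the 10 libraries (log2 CPM) were Naip5, Gm15601 (r = 0.924), Ddhd1 (0.906), Efcab11 (0.895) and Nfkbid (0.891), among 12242 genes. Those most like Naip5 were Naip2, Nfkbid (0.934), Efcab11 (0.878), Ncoa4 (0.872) and Tbx6 (0.869). Nfkbid, a nuclear inhibitor of NF-kappaB, averaged 27.4 ± 7.3 CPM in double-null, 11.8 ± 0.34 CPM in cluster-null, 47.8 ± 11.4 CPM in Nrf2-null and 35.9 ± 4.45 CPM in wild type libraries. Ddhd1, a phospholipase, averaged 100.3 ± 26.5 CPM in double-null, 44.8 ± 10.9 CPM in cluster-null, 99.1 ± 11.2 CPM in Nrf2-null and 101.9 ± 15.3 CPM in wild type libraries. All 6 genes other than the Naip pair had their lowest mean in cluster-null, between 2.02 CPM for Efcab11 and 255.6 CPM for Ncoa4. That follows from picking genes for their likeness to Naip2 and Naip5, which were lowest there, and is not a finding about these genes. A likeness of this kind rests on the same libraries and has no test.

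Compared per transcript length, Aim2 was the most abundant of the 8 genes in every genotype and Casp1 the next by mean. On the deposited FPKM scale Aim2 averaged 7.32 ± 3.42 in double-null, 12.1 ± 2.45 in cluster-null, 7.64 ± 0.273 in Nrf2-null and 13 ± 1.07 in wild type libraries (SD). Casp1 averaged 1.53 ± 0.375 FPKM in double-null, 4.23 ± 2.66 FPKM in cluster-null, 3.47 ± 0.447 FPKM in Nrf2-null and 4.5 ± 0.48 FPKM in wild type. In wild type the order then ran Naip2 (1.79 ± 0.279), Nlrc4 (1.44 ± 0.267), Naip5 (1.08 ± 0.00339), Pycard (0.713 ± 0.1), Naip6 (0.629 ± 0.0213) and Naip1 (0.039 ± 0.00328 FPKM). The ranges of Naip2 and Nlrc4 overlapped there, as did those of Pycard and Naip6. In cluster-null the third place went to Naip6 (0.941 ± 0.793 FPKM), which overlapped with Nlrc4 (0.755 ± 0.617), and Nlrc4 overlapped with Pycard (0.48 ± 0.224). Naip2 (0.0808 ± 0.0474), Naip1 (0.0125 ± 0.0177) and Naip5 (0) came last, the last pair overlapping. In Nrf2-null, Naip2 (1.98 ± 0.345), Naip5 (1.17 ± 0.452) and Nlrc4 (0.955 ± 0.104) followed Casp1, each overlapping with the next, ahead of Naip6 (0.558 ± 0.204) and Pycard (0.325 ± 0.104 FPKM). In double-null, Casp1 and Naip2 (1.41 ± 0.166) overlapped, and so did each next pair among Naip5 (0.665 ± 0.236), Nlrc4 (0.505 ± 0.0907), Naip6 (0.309 ± 0.229) and Pycard (0.281 ± 0.0221 FPKM). Naip1 came last in both, at 0.00423 FPKM in Nrf2-null and 0.00438 FPKM in double-null.

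Loss of the cluster with Nrf2 present is the contrast for which Naip2 and Naip5 were chosen, so their calls are not read as a test. No other tested member was called, against 4.63% of all genes. The other members are described by their levels. Nlrc4 stood at 1.17 and 3.87 CPM in cluster-null libraries, against 4.31 and 6.68 CPM in wild type libraries. Aim2 stood at 34.7 and 41.0 CPM in cluster-null libraries, against 43.1 and 45.7 CPM in wild type libraries. Pycard stood at 1.17 and 2.05 CPM in cluster-null libraries, against 2.67 and 2.61 CPM in wild type libraries. Both cluster-null libraries lay below both wild type libraries for each of these genes, and nothing is read from that order among 4 libraries. Casp1 overlapped, at 3.36 and 7.74 CPM in cluster-null and 5.58 and 7.74 CPM in wild type. For Naip6, Nlrc4, Aim2, Pycard and Casp1 alike, cluster-null replicate 1 lay below replicate 3. The summed level of B cell markers was 247.3 CPM in replicate 1 and 545.5 CPM in replicate 3, that of macrophage markers 131.1 and 235.9 CPM, and that of neutrophil markers 410.4 and 1074.7 CPM, and their part in these levels was not tested.

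Loss of Nrf2 with the cluster present called none of the 7 tested members, against 0.191% of all genes (edgeR; 1 at an unadjusted p under 0.05, and 0 with DESeq2). Naip2 averaged 10.1 ± 1.88 CPM in Nrf2-null and 8.42 ± 0.279 CPM in wild type libraries (log2 fold change 0.26 ± 0.27 SE, adjusted p 0.719 by edgeR). Naip5 averaged 6.44 ± 2.72 CPM in Nrf2-null and 5.53 ± 0.699 CPM in wild type (0.22 ± 0.41, adjusted p 0.854 by edgeR). Pycard, the adaptor, had the smallest p of the 7: it stood at 0.807, 1.43 and 1.68 CPM in Nrf2-null libraries, against 2.67 and 2.61 CPM in wild type libraries. The difference failed the adjustment (-1.02 ± 0.41, p 0.0321, adjusted p 0.382 by edgeR). The groups did not overlap, but groups of 2 and 3 libraries can separate in order with no true difference. The share of all genes that did so was not counted, and nothing is read from a lack of overlap here or below. Pycard overlaps Gm45205 on the opposite strand, a gene with 47 counts over all libraries. Aim2 stood at 27.2, 28.9 and 28.2 CPM in Nrf2-null libraries, against 43.1 and 45.7 CPM in wild type libraries, again without overlap (-0.66 ± 0.34, adjusted p 0.453 by edgeR). With a term for sex, which the double-null libraries alone inform, Aim2 was at -2.08 (adjusted p 0.0249 by edgeR). That value rests on double-null replicate 3, the only female among them, which held the lowest Aim2 level (12.8 CPM). Naip6, Nlrc4 and Casp1 had log2 fold changes of -0.06 ± 0.63, -0.51 ± 0.44 and -0.28 ± 0.37 (adjusted p 0.648 to 0.977 by edgeR). The median of the 7 was -0.28, where that of all genes was -0.02.

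Loss of the cluster without Nrf2 called 1 of the 7 tested members, Casp1, which is 14.3% against 27.3% of all genes, a share below that of genes at large. It was a fall, as for 12.9% of all genes. Casp1 was at 1.86, 2.96 and 2.31 CPM in the double-null libraries, against 4.58, 5.49 and 6.35 CPM in the Nrf2-null libraries. It fell 2.3-fold, with every double-null library below every Nrf2-null library (-1.20 ± 0.35 SE, adjusted p 0.0271 by edgeR). Leaving out Nrf2-null replicate 2 (adjusted p 0.0599) or 3 (0.0806), or double-null replicate 1 (0.0852) or 3 (0.0844), lost the call, as did a term for sex (0.0767), all by edgeR. In the male libraries alone, a choice made after seeing the data, it was lost as well (adjusted p 0.111 by edgeR). The log2 fold change was -1.05 to -1.20 with these libraries left out, -1.18 with the term for sex and -1.16 in the male libraries.

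None of the other 6 tested members passed in that comparison. Nlrc4 was at 2.53, 1.75 and 1.8 CPM in double-null libraries, against 3.57, 4.29 and 3.67 CPM in Nrf2-null libraries, without overlap (-0.92 ± 0.41, adjusted p 0.121 by edgeR). Its adjusted p was 0.0454 and 0.0457 by edgeR without cluster-null replicate 1 or 3 (-0.91 and -0.92). Neither library is in the groups compared, but leaving one out changes the estimate of the spread and the genes that pass the filter. Naip2 averaged 7.13 ± 0.968 CPM in double-null and 10.1 ± 1.88 CPM in Nrf2-null (-0.50 ± 0.25, adjusted p 0.153 by edgeR). Naip5 averaged 3.58 ± 1.17 CPM in double-null and 6.44 ± 2.72 CPM in Nrf2-null, the groups not overlapping (-0.85 ± 0.37, adjusted p 0.119 by edgeR). Naip6 was at -0.88 ± 0.58, Aim2 at -0.06 ± 0.31 and Pycard at -0.22 ± 0.40 (adjusted p 0.291 to 0.907 by edgeR). The 7 log2 fold changes were all below 0, with a median of -0.85. Of all genes 48.9% were below 0, with a median of 0.02. The sum over the Naip rows gave -0.67 ± 0.37 (adjusted p 0.205 by edgeR).

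Loss of both called 2 of the 7 tested members, Casp1 and Nlrc4, which is 28.6% against 17.2% of all genes. Both fell, as did 8.95% of all genes. This comparison shares the double-null libraries with the one before and the wild type libraries with the Nrf2-null one. Casp1 was at 1.86, 2.96 and 2.31 CPM in double-null libraries, against 5.58 and 7.74 CPM in wild type libraries, and fell 2.79-fold (-1.48 ± 0.38 SE, adjusted p 0.0228 by edgeR). Nlrc4 was at 2.53, 1.75 and 1.8 CPM in double-null libraries, against 4.31 and 6.68 CPM in wild type libraries, and fell 2.7-fold (-1.43 ± 0.45, adjusted p 0.0482 by edgeR). In neither gene did the groups overlap. The Casp1 call was lost by leaving out wild type replicate 1 (adjusted p 0.0516) or 3 (0.163) or double-null replicate 1 (0.0697) or 3 (0.0731), and by a term for sex (0.163), all by edgeR. Its log2 fold change was then -1.68, -1.23, -1.33 and -1.42 for these libraries in turn, and -1.52 with the term for sex. The Nlrc4 call stood just under the threshold and was lost without wild type replicate 1 (0.0866) or 3 (0.284), Nrf2-null replicate 1 (0.0722), 2 (0.0684) or 3 (0.0556), or double-null replicate 1 (0.0672), 2 (0.102) or 3 (0.128), all by edgeR. It was also lost with the replicate block (0.0928), a term for sex (0.203) and globin genes removed (0.0518). Its log2 fold change was -1.08 to -1.70 with a library left out, -1.37 with the block, -1.60 with the term for sex and -1.40 with globin genes removed.

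The other 5 tested members did not pass in double-null against wild type. Pycard was at 1.12, 1.22 and 1.01 CPM in double-null libraries, against 2.67 and 2.61 CPM in wild type libraries, without overlap (-1.24 ± 0.42, adjusted p 0.0644 by edgeR). Aim2 was at 30.0, 38.1 and 12.8 CPM in double-null libraries, against 43.1 and 45.7 CPM in wild type libraries, without overlap (-0.72 ± 0.34, adjusted p 0.169 by edgeR). Double-null replicate 3 held the lowest Aim2 level of the 10 libraries. Without double-null replicate 2 Aim2 was at -1.05 (adjusted p 0.0473), with a term for sex at -1.80 (adjusted p 0.0105) and with no filter on low counts at -0.69 (adjusted p 0.0108), by edgeR. The value with the term for sex rests on double-null replicate 3, the only female library outside wild type. Naip2 averaged 7.13 ± 0.968 CPM in double-null and 8.42 ± 0.279 CPM in wild type (-0.24 ± 0.27, adjusted p 0.581 by edgeR). Naip5 and Naip6 were at -0.63 ± 0.41 and -0.94 ± 0.64 (adjusted p 0.328 and 0.342 by edgeR). The median of the 7 was -0.94, where that of all genes was -0.02.

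Loss of Nrf2 without the cluster, and the interaction of both losses, use the libraries for which the genes were chosen. In each, the calls of Naip2 and Naip5 are not read as a test. No other tested member was called, against 0.0638% of all genes. With no filter on low counts, edgeR also called Naip6 (-1.38, adjusted p 0.0256) and Casp1 (-1.25, adjusted p 0.0363) in double-null against cluster-null. There 743 of 27087 genes passed. Of the other members, Casp1 was at 1.86, 2.96 and 2.31 CPM in double-null libraries, against 3.36 and 7.74 CPM in cluster-null libraries, without overlap. Naip6, Nlrc4, Aim2 and Pycard overlapped between the double-null and cluster-null libraries.

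Markers of other cell types were read in the comparisons in which Casp1 and Nlrc4 fell. Of all genes, 12.9% fell in double-null against Nrf2-null and 8.95% against wild type, and the counts below stand beside those shares. Only in the B cell list was every marker called lower. All 10 B cell markers fell in double-null against Nrf2-null (median -1.87) and against wild type (median -2.49). Their summed level was 110.1 to 203.9 CPM in double-null, 247.3 to 545.5 CPM in cluster-null, 481.2 to 610.9 CPM in Nrf2-null and 678.3 to 1097.7 CPM in wild type libraries. Other lists had median log2 fold changes of -1.49 (macrophage), -1.19 (monocyte and dendritic cell), 0.802 (neutrophil), -0.896 (T cell) and -1.39 (NK cell) against Nrf2-null. Against wild type these medians were 0.141, -1.22, 1.68, -1.28 and -0.858 in that order. Of 13 tested macrophage markers, 2 fell against Nrf2-null and 0 against wild type, and their sum was 71.4 to 323.7 CPM in double-null, 131.1 to 235.9 CPM in cluster-null, 276.5 to 929.1 CPM in Nrf2-null and 166.6 to 173.1 CPM in wild type libraries. Of 11 tested monocyte and dendritic cell markers, 1 fell against Nrf2-null and 2 against wild type, with sums of 47.2 to 56.7 CPM in double-null, 54.1 to 100.2 CPM in cluster-null, 57.8 to 67.6 CPM in Nrf2-null and 49.8 to 72.9 CPM in wild type libraries. None of 13 neutrophil markers passed, and their sum was 1264.1 to 1343.4 CPM in double-null, 410.4 to 1074.7 CPM in cluster-null, 187.4 to 1354.3 CPM in Nrf2-null and 472.6 to 528.8 CPM in wild type libraries. Of 10 T cell markers, 1 fell against Nrf2-null and 2 against wild type, with sums of 15.4 to 61.2 CPM in double-null, 35.5 to 61.1 CPM in cluster-null, 65.1 to 85.3 CPM in Nrf2-null and 69.1 to 107.6 CPM in wild type libraries. Of 8 NK cell markers, 2 fell against Nrf2-null and 1 against wild type, with sums of 6.92 to 26.1 CPM in double-null, 13.6 to 24.9 CPM in cluster-null, 25.5 to 32.2 CPM in Nrf2-null and 18.2 to 21.4 CPM in wild type libraries. Of the 14 erythroblast markers, 5 fell against Nrf2-null (median -0.406) and 2 against wild type (median -0.277). Their sum was 135480.8 to 165274.3 CPM in double-null and 96049.7 to 108044.2 CPM in cluster-null libraries. It was 120176.1 to 154694.8 CPM in Nrf2-null and 101994.3 to 142404.1 CPM in wild type libraries. No marker of these lists was at 0 in all libraries. Fewer cells of a type and less RNA per cell cannot be told apart in bulk samples, and the part of these cells in the levels of Casp1 and Nlrc4 was not tested.

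Beyond the members, a list of 40 inflammasome and pyroptosis genes was read, of which 36 were in the table and 32 were tested. None passed in cluster-null against wild type (edgeR; 5 at an unadjusted p under 0.05, and 1 higher with DESeq2) or in Nrf2-null against wild type (7, and 2 higher with DESeq2). With no filter on low counts, edgeR called 1 higher and 2 lower in cluster-null, and 5 higher and 2 lower in Nrf2-null, out of 36. In double-null against Nrf2-null 29 of the 32 log2 fold changes were below 0 (median -0.64), where 48.9% of all genes were (median 0.02). There 1 rose and 7 fell, which is 25% against 27.3% of all genes. The count that fell was 4 without Nrf2-null replicate 3, 3 without double-null replicate 1, 10 without double-null replicate 2, 4 without double-null replicate 3 and 13 with no filter on low counts, where 2 rose. It was 1 in the male libraries alone, a choice made after seeing the data. In double-null against wild type 2 rose and 5 fell, 21.9% against 17.2% of all genes (median -0.17, where that of all genes was -0.02). There 1 rose and 2 fell without wild type replicate 1, 1 rose and 1 fell without wild type replicate 3, 1 rose and 3 fell without double-null replicate 1, 2 rose and 3 fell without double-null replicate 3, and none passed with a term for sex. With no filter on low counts 4 rose and 7 fell.

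The list held 6 measured relatives of Aim2 in the interferon-inducible PYHIN family, of which Ifi203, Ifi204 and Ifi209 passed in double-null against Nrf2-null. The others did not: Ifi207 was at -1.35 ± 0.64 (adjusted p 0.147 by edgeR) and Ifi211 at -1.11 ± 0.58 (adjusted p 0.176 by edgeR), and Ifi205 lay below the filter on low counts. Ifi203 was at 5.8, 13.6 and 8.93 CPM in double-null libraries, against 27.7, 29.8 and 39.2 CPM in Nrf2-null libraries (-1.77 ± 0.38, adjusted p 0.00807 by edgeR). It fell against wild type as well, where it was at 45.4 and 61.1 CPM (-2.49 ± 0.41, adjusted p 0.00413 by edgeR). Ifi209 fell against Nrf2-null (-1.71 ± 0.46, adjusted p 0.0218 by edgeR) and against wild type (-2.71 ± 0.49, adjusted p 0.00659), and Ifi204 against Nrf2-null (-1.72 ± 0.44, adjusted p 0.0151 by edgeR). Irf8, a transcription factor of monocytes, dendritic cells and B cells that is known to drive Naip genes in mouse macrophages, was at 8.1, 17.9 and 9.44 CPM in double-null libraries. It was at 19.0 and 52.4 CPM in cluster-null, 32.2, 29.7 and 60.4 CPM in Nrf2-null and 47.2 and 58.4 CPM in wild type libraries. The fall in double-null passed against both Nrf2-null (-1.79 ± 0.45, adjusted p 0.0182 by edgeR) and wild type (-2.16 ± 0.49, adjusted p 0.0176). Its part in the levels of the Naip genes was not tested.

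The remaining calls were of sensors, a kinase and the executors of cell death. Zbp1, a sensor of left-handed nucleic acids, fell against Nrf2-null (-1.53 ± 0.38, adjusted p 0.0125 by edgeR) and wild type (-1.84 ± 0.41, adjusted p 0.0124). Nod1, a sensor of bacterial cell walls, fell against Nrf2-null (-1.30 ± 0.34, adjusted p 0.0165 by edgeR). Casp8, the caspase of extrinsic apoptosis, fell against Nrf2-null (-0.64 ± 0.17, adjusted p 0.0165 by edgeR) and wild type (-0.75 ± 0.18, adjusted p 0.0184). Nek7, a kinase needed by the Nlrp3 inflammasome, was at 153.4, 151.8 and 127.5 CPM in double-null libraries, against 87.3, 81.0 and 89.8 CPM in Nrf2-null libraries, and rose (0.75 ± 0.15, adjusted p 0.00389 by edgeR). It also rose against wild type, at 65.3 and 92.8 CPM (0.87 ± 0.17, adjusted p 0.0064 by edgeR). Ninj1, which ruptures the membrane of dying cells, rose against wild type (1.36 ± 0.34, adjusted p 0.0195 by edgeR).

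The substrates of caspase-1 did not pass in any comparison with edgeR, and they are named for that role. Gsdmd, the pore former gasdermin D, averaged 8.34 ± 1.71 CPM in double-null, 8.68 ± 3.4 CPM in cluster-null, 9.21 ± 0.229 CPM in Nrf2-null and 9.34 ± 0.156 CPM in wild type libraries. Il1b averaged 14.2 ± 9.26 CPM in double-null, 7.82 ± 2.39 CPM in cluster-null, 25.3 ± 10.3 CPM in Nrf2-null and 7.85 ± 1.77 CPM in wild type libraries. Its smallest p was for Nrf2-null against wild type (1.68 ± 0.53, adjusted p 0.343 by edgeR). Il18 averaged 2.72 ± 1.82 CPM in double-null, 2.09 ± 0.783 CPM in cluster-null, 6.2 ± 4.09 CPM in Nrf2-null and 2.78 ± 0.361 CPM in wild type libraries.

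**Figure D4:**
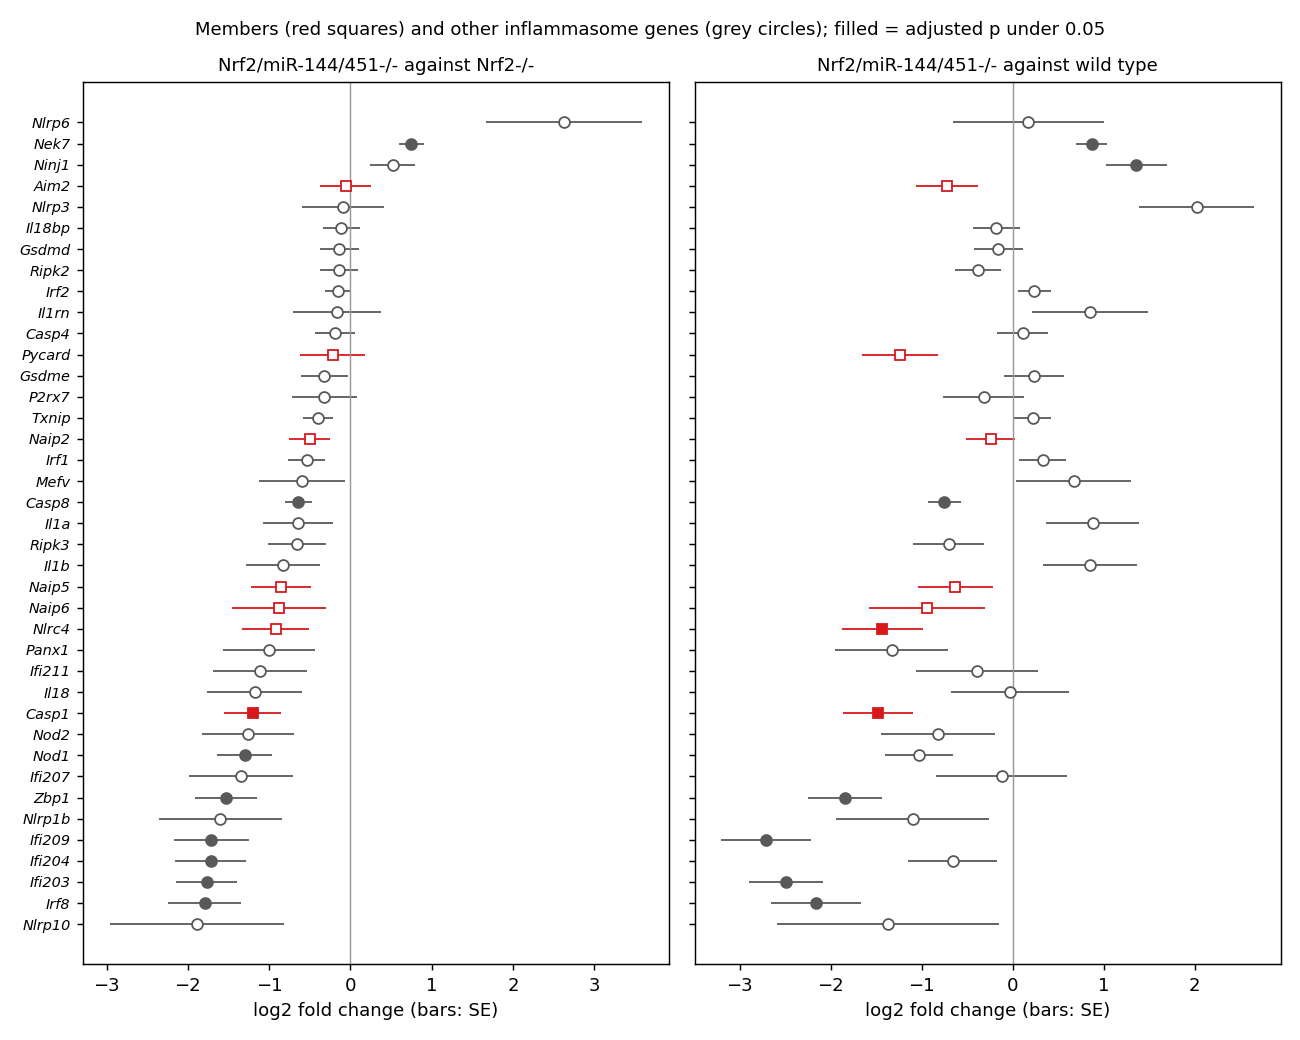
Log2 fold change with SE of the 7 tested members (red squares) and the 32 tested genes of the wider list (grey circles), in Nrf2/miR-144/451-/- against Nrf2-/- (left) and against wild type (right), filled where the adjusted p was under 0.05. Casp1 is filled at -1.20 and -1.48, Nlrc4 at -1.43 on the right, and Naip2 and Naip5 are open in both panels.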

How the data were processed

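RNA was sequenced from 10 libraries, grouped by the genotype in their labels. The authors deposited raw counts (53465 Ensembl identifiers) and, for each library, FPKM. The deposited FPKM equal the count over the library total and a fixed length for each gene, within 0.1% for all 15123 genes with at least 10 counts, and serve only to order genes by level. Per the submitters' processing notes, CASAVA, Bowtie2 2.2.3, HISAT2 2.1.0, TopHat2 and mm9 were used, with no role given. Neither counting tool, annotation nor strand setting is given in the sources used here, so reads of antisense genes cannot be told apart. Symbols came from GENCODE M21 (99.64% of identifiers matched), an annotation of a later build. Promoters and microRNAs are RefSeq's on GRCm38.p6.

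The counts of all libraries were fitted together (R 4.3.3, edgeR 4.0.16) by a two-sided robust quasi-likelihood test with TMM factors, filterByExpr (14110 genes), a coefficient for every genotype and 6 residual degrees of freedom. A call is a Benjamini-Hochberg adjusted p under 0.05 over all tested genes. The SE is the log2 fold change divided by the square root of F. Tables were made with Python 3.11.15, pandas 2.3.3, scipy 1.17.1 and matplotlib 3.10.9. The fit was tested on simulated data. Alternatives were DESeq2 1.42.0, other scalings, no filter, only the groups compared, a replicate block, a term for sex, no globin genes, summed Naip rows and each library left out. Replicates differed beyond sampling noise (chi-square per degree of freedom 15.5 to 27.2), so no pair looks like repeat deposits of a library, which does not show that they came from separate mice.

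The members, gene lists and tests were chosen with earlier results of these data known. The named genes are the 8 members, the targeted genes, up to 8 called genes of the wider list per comparison by smallest p, the 6 tested neighbours a side, and the 5 genes most like Naip2 and Naip5 by Pearson's r on log2 CPM (prior count 2, mean of at least 1 CPM). Of the 40 list genes, 36 matched a row, and the others are not analysed here. Gsdmd, Il1b and Il18 are named outside this rule, for their role.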

Additional observations from a re-analysis of the deposited data

Results flagged for a closer look

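The effect of losing the cluster differed with and without Nrf2 for Naip2 and Naip5. For Naip2, the log2 effect without Nrf2 (double-null against Nrf2-null, -0.50) minus that with Nrf2 (cluster-null against wild type, -4.54) was 4.04. For Naip5 the same difference was 8.44, a fitted value that depends on the prior count because Naip5 had 0 counts in both cluster-null libraries, and is not a bound. Both differences rest on the 2 cluster-null libraries for which the genes were chosen, and are given as a description.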

How the results depend on the processing

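The 17 reversals all concerned log2 fold changes of members that were not called. With a term for sex they were -0.15 for Naip6 (cluster-null against wild type), -0.057 for Naip2 (Nrf2-null against wild type) and 0.28 for Aim2 (double-null against Nrf2-null). In the male libraries alone, chosen after seeing the data, Aim2 had 0.30 there, and -0.39 to 0.31 with a library left out. With single libraries left out, cluster-null against wild type gave -0.96 to 0.23 for Casp1 and -0.74 to 1.05 for Naip6. Nrf2-null against wild type gave -0.44 to 0.13 for Naip6 and -0.18 to 0.41 for Naip5. Double-null against cluster-null gave -0.94 to 0.77 for Nlrc4, and the interaction gave -0.42 to 1.27 for Nlrc4 and -0.16 to 0.51 for Aim2. Of the other values of single members under an alternative, 720 kept their direction and side of the threshold, 41 fell short of it and 9 passed it. The 653 genes called in cluster-null against wild type were 998 with DESeq2, 1254 with no filter on low counts, 152 in a fit of only the groups compared, 429 with the replicate block, 1 with a term for sex and 40 to 691 with a library left out. In the fit described above, the members called in every comparison that uses the cluster-null libraries were Naip2 and Naip5. Both were chosen on those libraries. Whether such calls hold is therefore no support for them. The 2 members called here were 0 with a term for sex and 2 to 2 with a library left out. They were 0 with the Naip rows summed, where the sum counts as a single feature and no single Naip gene has a value. In Nrf2-null against wild type, the 27 genes were 135 with DESeq2, 716 with no filter, 45 with only the groups compared, 12 with a term for sex and 11 to 32 with a library left out, and the 0 members were 1 with a term for sex and 0 to 0 with a library left out. In double-null against Nrf2-null, the 3850 genes were 2646 to 3929 with a library left out, and the 1 member was 2 with only the groups compared, 0 with a term for sex, 0 in the male libraries and 0 to 2 with a library left out. In double-null against cluster-null, the 9 genes were 183 with DESeq2, 743 with no filter, 2 with only the groups compared, 4 with the replicate block, 5 with Naip rows summed, 3 in the male libraries and 4 to 78 with a library left out. The 2 members there were 4 with no filter, 0 with only the groups compared, 0 with Naip rows summed, 1 in the male libraries and 1 to 2 with a library left out. In double-null against wild type, the 2428 genes were 560 with a term for sex and 775 to 2648 with a library left out. The 2 members were 1 with the replicate block, 1 with a term for sex, 1 with globin genes removed and 0 to 2 with a library left out. For the interaction, the 9 genes were 24 with DESeq2, 232 with no filter, 5 with the replicate block, 2 with a term for sex, 5 with Naip rows summed and 3 to 12 with a library left out, and the 2 members were 1 with the block, 0 with a term for sex, 0 with Naip rows summed and 0 to 2 with a library left out. Deviations of same-numbered libraries from their group mean correlated at -0.111 to 0.287. In groups of 2 the deviations mirror each other, so these values do not decide whether the replicate numbers pair the samples. The cause of these moves was not tested. The tested members other than Aim2 had 12 to 155 counts per library outside the cluster-null libraries, and the effect of depth was not tested.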

Other observations

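Nlrp1a, a sensor whose activation in mouse blood progenitors is known to cause cell death and low blood counts, lay below the filter on low counts and was singled out after its values were seen. It had 0, 0 and 2 counts in the double-null libraries, 0 and 0 counts in the cluster-null libraries, 6, 5 and 4 counts in the Nrf2-null libraries and 4 and 6 counts in the wild type libraries. Each of the 5 libraries without the cluster held fewer counts than each of the 5 with it, a description over few counts with no test. How many of all rows separate in this way was not counted, and whether the lost microRNAs have a part in it was not tested.

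Over the 10 libraries, Casp1 varied with Naip6 (r = 0.87), Nlrc4 (0.76) and Pycard (0.71) on the log2 scale, as a description of libraries of which several share a genotype, with no test.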
